A study of Mus musculus with 4 samples.

Results

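Aminoacyl-tRNA synthetases are the enzymes that attach each amino acid to its tRNA. The 37 genes described here are the cytosolic enzymes (20 genes) and the mitochondrial enzymes (17 genes), out of 20716 genes in a mouse ribosome profiling table. They were chosen by gene symbol alone, and the coding sequence entries of a symbol were summed. Ribosome profiling sequences the pieces of mRNA that ribosomes shield from nuclease, so a footprint count follows both the amount of an mRNA and its occupancy by ribosomes, and the 2 cannot be told apart from these libraries.

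The libraries came from embryoid bodies (EBs), floating aggregates in which embryonic stem cells differentiate, and from the embryonic stem cells (ESCs) themselves. The 4 groups were Mettl3-KO EBs, WT EBs, Mettl3-KO ESCs and WT ESCs, all of strain C57BL/6, with 1 library each. Mettl3 encodes the enzyme that places N6-methyladenosine on mRNA, and the KO lines lack it by label. The ESCs were held in the naive state in N2B27 medium without serum, with LIF, CHIR99021 (a GSK3 inhibitor) and PD0325901 (a MEK inhibitor), whereas the EBs grew in DMEM with 15% serum, with a stated span of 8 to 21 days. Which day each EB library stands for, which part of Mettl3 was deleted and how many KO clones were used is not stated in the labels. With no replicates, no difference between 2 libraries had a replicate check, and every interval below covers counting error only.

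The libraries held 4075850 gene reads in KO EBs, 4234361 in WT EBs, 11455539 in KO ESCs and 8570204 in WT ESCs. Mettl3 still had footprints in KO cells. Its normalised count was 327 in KO EBs against 429 in WT EBs, and 298 in KO ESCs against 563 in WT ESCs, which is lower in KO at both stages but not absent. The KO EBs and WT EBs also differed in footprints of cell type markers. The 6 visceral endoderm markers (Afp, Ttr, Apoa1, Apob, Cubn and Amn) summed to 1293 in KO EBs against 43153 in WT EBs, and to 73.1 in KO ESCs and 90.3 in WT ESCs. The 5 mesenchyme markers (Col1a1, Col1a2, Col3a1, Twist1 and Thy1) summed to 5963 in KO EBs against 1075 in WT EBs, and to 2002 in KO ESCs against 409 in WT ESCs. The 5 pluripotency markers (Pou5f1, Sox2, Nanog, Zfp42 and Tdgf1) were present in all 4 libraries, at 16315 in KO EBs, 11033 in WT EBs, 11626 in KO ESCs and 17142 in WT ESCs, and all 4 blood markers were listed at 0. The part in any synthetase value of cell differences behind these markers was not tested. In such bulk samples, fewer cells of a type and less RNA per cell cannot be told apart.

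Cytosolic translation and mitochondrial translation use separate tRNAs, and mammals encode most mitochondrial synthetases in nuclear genes of their own, marked by the suffix 2. Gars and Kars are the exceptions, since each makes the enzyme of both compartments, and Eprs joins the glutamyl and prolyl enzymes in a single protein. Mitochondria have no glutaminyl enzyme: Ears2 first charges the tRNA with glutamate, which an amidotransferase then converts. In the cytosol, 8 of the enzymes (Eprs, Iars, Lars, Mars, Qars, Rars, Kars and Dars) sit in the multisynthetase complex on the scaffold proteins Aimp1, Aimp2 and Eef1e1. Many cytosolic synthetase genes are known targets of ATF4, the transcription factor of the amino acid starvation response, which binds a composite C/EBP-ATF element.

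The 8-letter core of that element, TGATGNAA, was searched on both strands of RefSeq promoters of the GRCm38.p6 build, each from 250 bases before to 50 bases after a start site. Of 13 cytosolic synthetase promoters 5 held it, against 0 of 15 mitochondrial promoters (of 14 genes) and 1304 of 32851 promoters in all, which is 3.97%. No promoter was matched to Cars, Hars, Lars, Nars, Rars, Vars or Wars, so these were not searched. The 5 genes with the motif were Aars, Gars, Iars, Tars and Yars. A match of each is printed in 30 bases on the strand of the gene, with the match in capitals, because the same 5 genes are followed through the comparisons. A match of letters does not show binding, and no match says only that these letters are not in the window.

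Aars, plus strand, chr8:111033840-111033869: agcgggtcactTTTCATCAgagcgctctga

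Gars, plus strand, chr6:55037960-55037989: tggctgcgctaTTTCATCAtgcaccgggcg

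Iars, plus strand, chr13:49682126-49682155: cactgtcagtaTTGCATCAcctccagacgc

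Tars, minus strand, chr15:11399655-11399684: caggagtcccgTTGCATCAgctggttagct

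Yars, plus strand, chr4:129189895-129189924: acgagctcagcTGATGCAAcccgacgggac

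The Iars and Tars elements shared the letters TTGCATCA, the reverse complement of the Yars element TGATGCAA. The printed Aars element and that of Gars shared TTTCATCA. Of the ATF4 pathway genes outside the synthetases, 4 of 17 with a promoter in the table held the motif by the same search.

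Of the 37 genes, 30 had reads and 7 were listed at 0 in every library. The 7 were Cars, Farsb, Mars, Nars and Sars among the cytosolic enzymes, and Pars2 and Tars2 among the mitochondrial ones. Each of them has at least 2 RefSeq entries whose coding bases overlap almost completely, and the counting tool credits no gene with a read that lies in more than 1 entry. Farsb and Pars2 had 0 coding bases that belonged to only 1 entry, Nars had 3, Tars2 had 21, Mars had 24, Sars had 72 and Cars had 249. A listed 0 is thus no measure of how much these genes were translated. Wars, with 22 such bases, had between 4 and 34 reads per library and stayed below the filter described next. Kars had 59 such bases of 1788 and between 38 and 174 reads, so its value rests on a small piece of the gene. Fars2 was counted over 696 of 1356 coding bases and Dars over 1289 of the 1506 of its longest entry, and the other 26 genes with reads had 1 entry each. Of the coding windows of Iars, 22.7% have a copy elsewhere in the genome, and in the other members counted this was at most 6.36%.

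**Figure D1:**
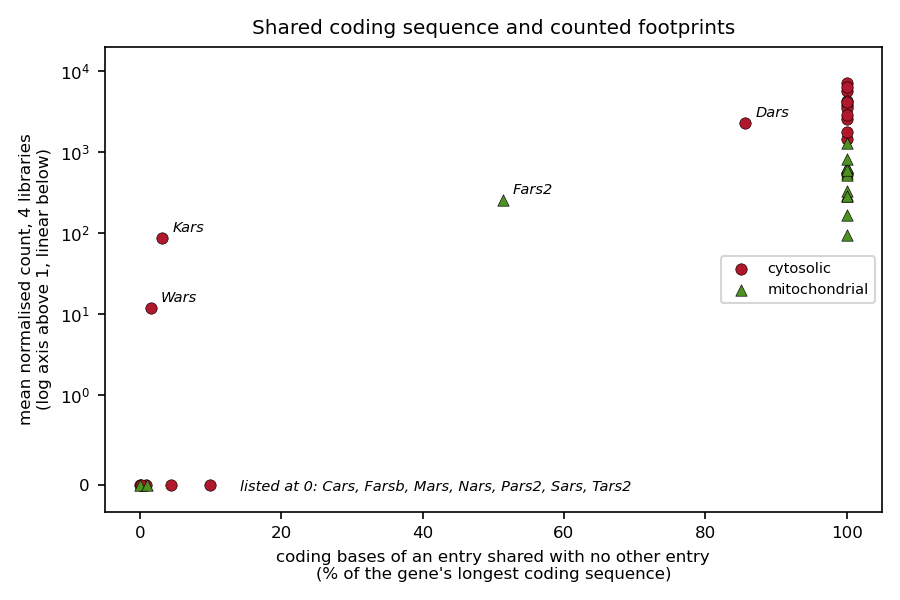
Mean normalised count over the 4 libraries (vertical axis, logarithmic above 1) against the share of coding bases that belong to only 1 RefSeq entry (horizontal axis, percent of the gene's longest coding sequence), 1 point per synthetase gene. The 7 genes listed at 0 all lie at or below 10% on the horizontal axis, beside Kars and Wars, and the other genes with reads lie above 50%.

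Comparisons took the genes whose normalised count averaged 25 or more across all 4 libraries, which kept 9670 of all genes and 29 of the 37 synthetases (14 cytosolic and 15 mitochondrial). Folds are given as log2 of the ratio after adding 1 to each value, and a gene is counted as higher or lower at 2-fold or, where stated, at 1.5-fold. The adjoining share of all genes past the same fold is the background for each count.

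Levels were taken per kilobase of coding bases that belong to only 1 RefSeq entry. By this measure glycyl-tRNA synthetase Gars stood at the top of the cytosolic class in all 4 libraries, and glutaminyl-tRNA synthetase Qars at the bottom. Kars and Wars have too few such bases for a level. In WT ESCs the normalised count per kilobase was 4081 for Gars, 3542 for Aars, 2392 for Tars, 2261 for Dars and 2175 for Yars. At the low end of that library stood Iars at 1451, Vars at 1328, Hars at 1228, Farsa at 1222 and Qars at 311. The length of Iars includes its windows with a copy elsewhere (22.7%), and reads without a unique place were not counted. Its level and place may thus be too low. Dars and Yars lay within counting error of each other, and so did Hars and Farsa. In KO EBs the order began with Gars at 2272, Aars at 2019 and Yars at 1875, and ended with Qars at 189. In KO ESCs it began with Gars at 2489 and Aars at 2389 and ended with Qars at 207. In WT EBs Dars at 2116 stood between Gars at 2859 and Aars at 2052, with Qars at 214.

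Mitochondrial enzymes lay lower per kilobase than all cytosolic enzymes but Qars in WT ESCs. In WT ESCs arginyl-tRNA synthetase Rars2 led at 510, followed by Yars2 at 457, Iars2 at 415, Sars2 at 388 and Fars2 at 366. The lowest there were Mars2 at 173, Hars2 at 161, Vars2 at 137, Lars2 at 129 and tryptophanyl-tRNA synthetase Wars2 at 55.3. In WT EBs Iars2 led at 556, and Wars2 was again the lowest at 108. In both KO libraries tyrosyl-tRNA synthetase Yars2 led, at 774 in KO EBs and 618 in KO ESCs, with Ears2 next at 573 in KO EBs and 539 in KO ESCs. Mars2 was then the lowest, at 37.3 in KO EBs and 40.9 in KO ESCs. Within counting error, Iars2 and Sars2 did not differ in WT ESCs, nor did Cars2 and Aars2.

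**Figure D2:**
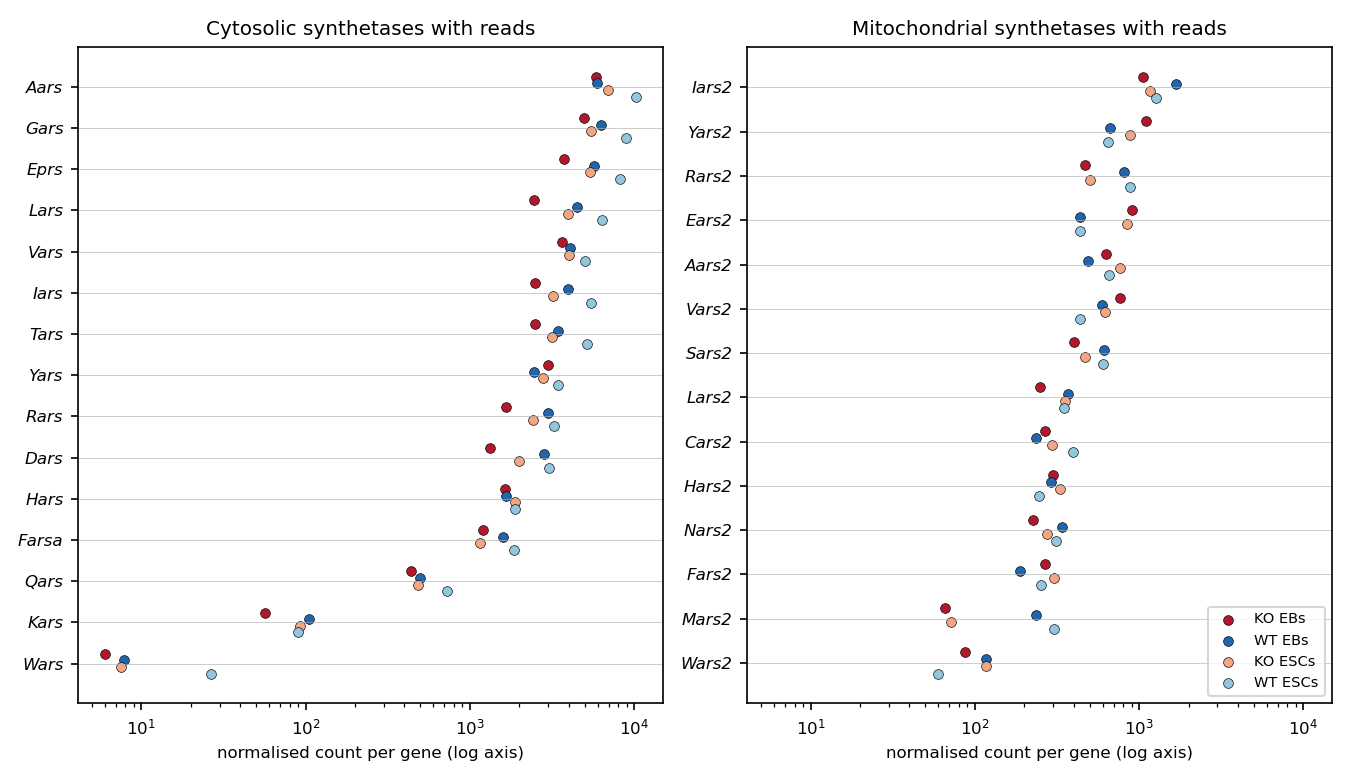
Normalised count per gene (horizontal axis, logarithmic) in each of the 4 libraries for the synthetases with reads that are reported by name, cytosolic on the left and mitochondrial on the right, sorted by mean. Each point is 1 library. In most cytosolic genes the WT ESC point lies farthest to the right, while in Mars2 both KO points lie far to the left of both WT points and in Ears2 both lie to the right.

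In ESCs the cytosolic synthetases were lower in KO as a class, and the mitochondrial ones were not. In KO ESCs over WT ESCs, 13 of the 14 cytosolic genes had a log2 fold below 0, with a median of -0.59, where the median of all genes was -0.00. None of the 14 reached 2-fold, where 10.6% of all genes were higher and 4.42% lower. At 1.5-fold 8 of the 14 were lower and 0 higher, against 13.4% of all genes lower and 20.5% higher. The 15 mitochondrial genes had a median of 0.12, with 9 above 0 and 6 below. Of these, 1 was lower at 2-fold (Mars2), and at 1.5-fold 2 were lower (Mars2 and Rars2) and 2 higher (Ears2 and Wars2).

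Isoleucyl-tRNA synthetase Iars had the lowest cytosolic fold. Its normalised count was 3206 in KO ESCs against 5498 in WT ESCs, or 1.71 times lower (95% interval 1.66 to 1.78). Threonyl-tRNA synthetase Tars had 3160 in KO ESCs against 5189 in WT ESCs, a log2 fold of -0.72. Gars had 5451 in KO ESCs against 8937 in WT ESCs, a log2 fold of -0.71. Both thus lay 1.64 times lower in KO ESCs. Lars, Farsa, Eprs, Dars and Qars followed between 1.5 and 1.63 times lower, and Aars, at 6946 in KO ESCs against 10297 in WT ESCs, was 1.48 times lower. At the other end, Hars did not differ beyond counting error, with 1873 in KO ESCs against 1878 in WT ESCs (ratio 0.997, interval 0.947 to 1.05). Kars had 92.8 in KO ESCs against 90.3 in WT ESCs, on 174 and 116 reads (ratio 1.03, interval 0.808 to 1.31). Tyrosyl-tRNA synthetase Yars had 2797 in KO ESCs against 3451 in WT ESCs, a log2 fold of -0.30, and Vars had 3992 in KO ESCs against 5036 in WT ESCs. Rars, the remaining complex enzyme, had 2435 in KO ESCs against 3236 in WT ESCs. Wars, below the filter, had 14 reads in KO ESCs and 34 in WT ESCs, or 3.54 times lower after scaling (interval 1.85 to 7.15), and 4 reads in KO EBs and 5 in WT EBs.

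The mitochondrial class held the widest range. Methionyl-tRNA synthetase Mars2, whose coding sequence lies in 1 exon, at chr1:55237177-55240058 (GRCm38.p6), had 72.0 in KO ESCs against 304 in WT ESCs. It was 4.23 times lower (interval 3.47 to 5.18), a log2 fold of -2.06. Rars2 had 501 in KO ESCs against 886 in WT ESCs, or 1.77 times lower. Cars2, with 296 in KO ESCs against 399 in WT ESCs, was 1.35 times lower. Glutamyl-tRNA synthetase Ears2, at chr7:122034162-122067094, went the other way, with 848 in KO ESCs against 437 in WT ESCs (ratio 1.94, interval 1.76 to 2.14). Wars2 had 117 in KO ESCs against 59.9 in WT ESCs (ratio 1.95, interval 1.5 to 2.56). Vars2 came next with 618 in KO ESCs against 437 in WT ESCs, a log2 fold of 0.50. Yars2 with 877 in KO ESCs against 648 in WT ESCs, and Hars2 with 332 against 244, each had a log2 fold of 0.44. Iars2 with 1162 in KO ESCs against 1262 in WT ESCs, and Sars2 with 466 against 605, were lower, though Iars2 was at 0.01 on the log2 scale when libraries had equal totals. The interval of the ratio held 1 for Lars2 and Nars2.

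In EBs the KO values were lower for part of each class. In KO EBs over WT EBs the cytosolic median was -0.44, with 13 of 14 genes below 0, where the median of all genes was -0.07. At 2-fold 1 cytosolic gene was lower (Dars) and 0 higher, against 12.2% of all genes lower and 15.2% higher. At 1.5-fold 6 of 14 were lower and 0 higher, against 25.1% lower and 24.6% higher among all genes. The mitochondrial median was -0.43, with 7 genes above 0 and 8 below. That median is the value of Wars2, on 58 reads in KO EBs and 75 in WT EBs, and the interval of its ratio held 1. With a mean of at least 100, which leaves out Wars2, the median was -0.27. The summed reads of the class gave -0.11. Mars2 was lower and Ears2 higher at 2-fold. At 1.5-fold 5 of 15 mitochondrial genes were lower, among them Mars2, Rars2, Iars2 and Sars2, and 2 higher (Ears2 and Yars2), beside the same shares of all genes.

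Aspartyl-tRNA synthetase Dars, at chr1:128363707-128417416, had 1324 in KO EBs against 2827 in WT EBs, or 2.14 times lower (interval 1.97 to 2.32). Kars had 56.7 in KO EBs against 104.4 in WT EBs, on 38 and 67 reads, or 1.84 times lower (interval 1.22 to 2.82). Leucyl-tRNA synthetase Lars had 2458 in KO EBs against 4475 in WT EBs, a log2 fold of -0.86, and it lay 1.82 times lower. Next came Rars with 1651 in KO EBs against 2985 in WT EBs, Iars with 2490 against 3966, and Eprs with 3727 against 5724. These 6 genes are the cytosolic ones past 1.5-fold. Yars was the only cytosolic gene above 0, with 2976 in KO EBs against 2450 in WT EBs (ratio 1.21, interval 1.14 to 1.30). Hars had 1646 in KO EBs against 1660 in WT EBs and Aars 5869 against 5966, and the interval of each ratio held 1. Gars had 4977 in KO EBs against 6262 in WT EBs, Vars 3664 against 4058, Farsa 1200 against 1596 and Tars 2484 against 3419, with log2 folds between -0.46 and -0.15.

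Mars2 had 65.7 in KO EBs against 237 in WT EBs, or 3.61 times lower (interval 2.56 to 5.17). Ears2 had 900 in KO EBs against 440 in WT EBs (ratio 2.05, interval 1.77 to 2.37). Each thus stood on the same side as in ESCs. Rars2 had 472 in KO EBs against 804 in WT EBs, a log2 fold of -0.77. Iars2 had 1060 in KO EBs against 1689 in WT EBs and Sars2 400 against 609. Yars2 had 1099 in KO EBs against 667 in WT EBs (ratio 1.65, interval 1.46 to 1.86), and phenylalanyl-tRNA synthetase Fars2 had 269 in KO EBs against 187 in WT EBs, a log2 fold of 0.52. Aars2, at 631 in KO EBs against 491 in WT EBs, and Vars2, at 763 against 597, were higher in KO at both stages, by less than 1.5-fold. Lars2 and Nars2 were each 1.49 times lower in KO EBs. The KO-to-WT ratio of Hars2, Cars2 and Wars2 in EBs had an interval that held 1.

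Taking both stages, 12 of the 14 cytosolic genes had KO values below WT values in ESCs and in EBs, and 0 had them above at both. Among all genes 34.4% were below at both stages and 30.6% above at both. Of the 15 mitochondrial genes 5 were below at both (Mars2, Rars2, Sars2, Nars2 and Iars2) and 6 above at both (Ears2, Yars2, Fars2, Aars2, Vars2 and Hars2). Giving every library an equal total shifted the all-gene median by 0.13 in ESCs and by 0.12 in EBs. The cytosolic genes below 0 then numbered 12 in ESCs, where Hars moved above 0, and 11 in EBs, where Aars and Hars did.

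**Figure D3:**
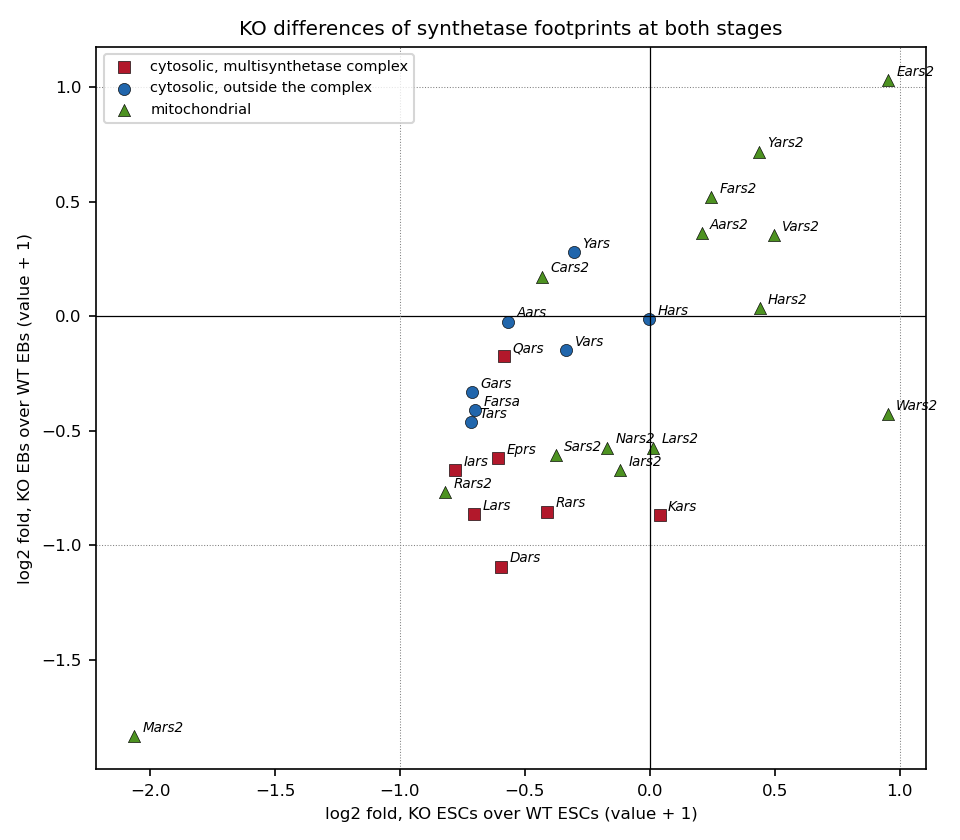
Log2 fold of KO over WT in ESCs (horizontal axis) and in EBs (vertical axis) for the synthetases compared and reported by name. Squares are enzymes of the multisynthetase complex, circles the other cytosolic enzymes and triangles the mitochondrial enzymes, with dotted lines at 2-fold. Mars2 lies alone at the lower left and Ears2 at the upper right, and 6 of the 7 squares lie lower in EBs than all circles.

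By median, enzymes of the multisynthetase complex lay farther below the other cytosolic enzymes in EBs than in ESCs. In KO EBs over WT EBs the 7 complex enzymes compared had a median log2 fold of -0.85 and the 7 enzymes outside it -0.15. Of the complex enzymes 6 were lower at 1.5-fold and of those outside 0, where 25.1% of all genes were. The exception was Qars, with 440 in KO EBs against 497 in WT EBs, a log2 fold of -0.17. The lowest enzyme outside was Tars at -0.46. The 2 sets thus overlapped at Qars, and the other 6 complex enzymes lay below Tars. In KO ESCs over WT ESCs the medians were -0.60 inside and -0.57 outside. Without Kars, whose value rests on few bases, the EB medians were -0.76 inside and -0.15 outside. The scaffold proteins were lower in KO as well. Eef1e1 had 821 in KO EBs against 1474 in WT EBs and 937 in KO ESCs against 1432 in WT ESCs. Aimp1 had 1248 in KO EBs against 1834 in WT EBs and 1328 in KO ESCs against 1720 in WT ESCs. Aimp2 was listed at 0. The lists were chosen with results of these data known, and no test was made of the contrast between them.

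In WT cells the cytosolic synthetases lay below 0 with small folds. In WT EBs over WT ESCs the cytosolic median was -0.48, with 13 of 14 genes below 0, where the median of all genes was -0.02 and 5011 of 9670 were below 0. None of the 29 synthetases reached 2-fold, where 11.0% of all genes were higher and 8.25% lower. At 1.5-fold 2 cytosolic genes were lower, Aars and Tars, against 15.6% of all genes lower and 18.2% higher. Aars had 5966 in WT EBs against 10297 in WT ESCs, or 1.73 times lower (interval 1.66 to 1.79), and Tars had 3419 against 5189, or 1.52 times lower. Qars came next with a log2 fold of -0.54. At the high end of the cytosolic class were Kars at 0.21, whose interval held a ratio of 1, Dars at -0.10 and Rars at -0.12. The mitochondrial median was 0.04, with 10 of 15 genes above 0, and -0.01 with 7 above under TMM scaling. Wars2 was the highest, with 117 in WT EBs against 59.9 in WT ESCs (ratio 1.95, interval 1.40 to 2.72), and then came Vars2 at 0.45. Cars2 was the lowest, with 237 in WT EBs against 399 in WT ESCs, or 1.68 times lower, and then Fars2 at -0.44 and Aars2 at -0.42.

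In KO cells the share of cytosolic synthetases lower at 1.5-fold was near that of all genes, while 0 were higher. In KO EBs over KO ESCs the cytosolic median was -0.30, with 12 of 14 genes below 0, where the median of all genes was -0.08 and 5321 of 9670 were below 0. Again none of the 29 reached 2-fold, where 9.31% of all genes were higher and 6.65% lower. At 1.5-fold 3 cytosolic genes were lower (Kars, Lars and Dars) and 0 higher, against 19.0% of all genes lower and 18.5% higher. Lars had 2458 in KO EBs against 3936 in KO ESCs, or 1.6 times lower (interval 1.52 to 1.69), and Dars had 1324 against 1999, or 1.51 times lower. The highest were Yars at 0.09, Farsa at 0.06 and Vars at -0.12. The mitochondrial median was -0.15, and 0 genes reached 1.5-fold. They ranged between Lars2 at -0.51 and Wars2 at -0.43 at the low end and Vars2 at 0.30 and Yars2 at 0.32 at the high end, with Ears2 next at 0.09.

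The EB change of KO minus that of WT, on the log2 scale, had a median of 0.15 in the cytosolic class and -0.14 in the mitochondrial class, where that of all genes was -0.08. At a difference of 2-fold 1 member was counted, Wars2 at -1.38, against 11.4% of all genes higher and 12.5% lower. Wars2 was higher in WT EBs than in WT ESCs and, at 86.6 in KO EBs against 117 in KO ESCs, lower in KO. At 1.5-fold Kars was lower in the cytosolic class, and in the mitochondrial class 3 genes were lower, among them Wars2 and Lars2, and Cars2 was higher, against 21.0% of all genes higher and 25.4% lower. In the cytosolic class Yars had the highest difference at 0.58, then Aars at 0.54 and Qars at 0.41, and Dars at -0.50 and Rars at -0.44 followed Kars at -0.91. Cars2 at 0.60 was the highest mitochondrial gene, and Yars2 at 0.28 and Fars2 at 0.27 came next.

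Summed over its members, the cytosolic class took 0.575% of gene reads in KO EBs against 0.697% in WT EBs, and 0.702% in KO ESCs against 0.958% in WT ESCs. The mitochondrial class took 0.119% in KO EBs against 0.118% in WT EBs, and 0.123% in KO ESCs against 0.110% in WT ESCs. Per 100 cytosolic reads there were thus 20.6 mitochondrial reads in KO EBs (interval 19.99 to 21.3) against 17.0 in WT EBs (16.5 to 17.5). In KO ESCs there were 17.5 (17.2 to 17.8) against 11.5 in WT ESCs (11.3 to 11.8). This ratio was lowest in WT ESCs and highest in KO EBs, and it needs no scaling between libraries. It counts only the 30 genes with reads.

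Cytosolic and mitochondrial enzymes for the same amino acid could be set side by side in 10 pairs, with Eprs beside Ears2 and Farsa beside Fars2. Cars2, Mars2, Nars2, Sars2 and Wars2 had no pair, since their cytosolic partners had no counted reads or, for Wars, lay below the filter. In KO ESCs over WT ESCs these had log2 folds of -2.06 (Mars2), -0.43 (Cars2), -0.38 (Sars2), -0.17 (Nars2) and 0.95 (Wars2). In KO EBs over WT EBs only Cars2 among them, at 0.17, was on the higher side. The mitochondrial gene had the higher log2 fold in 9 of 10 pairs in KO ESCs over WT ESCs and in 9 of 10 in KO EBs over WT EBs. By median it lay above its partner by 0.73 in ESCs and by 0.35 in EBs. In EBs Hars2 lay above Hars by only 0.05 and Rars2 above Rars by only 0.09. The mitochondrial gene was the higher in 8 of 10 pairs in each of the EB-over-ESC comparisons. The pair of glutamate enzymes lay farthest apart, with Ears2 above Eprs by 1.56 in ESCs and 1.65 in EBs on the log2 scale. Eprs had 3727 in KO EBs against 5724 in WT EBs and 5399 in KO ESCs against 8219 in WT ESCs, so the enzymes of a shared amino acid stood on opposite sides at both stages. Grouped by catalytic fold within the cytosol, class I enzymes had median log2 folds of KO over WT of -0.58 in ESCs and -0.62 in EBs, and class II enzymes -0.60 in ESCs and -0.41 in EBs. Within mitochondria the class I medians were 0.01 in ESCs and -0.43 in EBs, the latter again the value of Wars2. Those of class II were 0.16 in ESCs and -0.27 in EBs.

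In EBs the ATF4 pathway genes and the synthetases known as ATF4 targets had median KO-over-WT folds of opposite sign. Atf4 itself had 1687 in KO EBs against 1169 in WT EBs, and 1435 in KO ESCs against 2462 in WT ESCs. Of 16 ATF4 pathway genes compared, which include the amino acid starvation genes Asns, Chac1 and Trib3, 8 were higher at 2-fold in KO EBs over WT EBs, where 15.2% of all genes were. Their median was 0.99 and that of all genes -0.07. The pathway genes ranged between Asns at -0.13 and Atf5 at 2.36, the latter on 38 reads in WT EBs. Of the 16, 13 were above 0 and 3 below, and Phgdh, Sesn2, Mthfd2 and Psph lay between -0.11 and 0.05 in this comparison. The 7 ATF4-target synthetases compared had a median of -0.46 there, with Yars at 0.28 the highest and Lars at -0.86 the lowest. Of them 0 were lower at 2-fold and 3 at 1.5-fold, against 12.2% and 25.1% of all genes. The 7 cytosolic synthetases not reported as ATF4 targets had a median of -0.41, with 1 lower at 2-fold and 3 at 1.5-fold. In KO ESCs over WT ESCs the pathway had a median of -0.41, between Asns at -0.81 and Cebpb at 0.95. That of the target synthetases was -0.70. In WT EBs over WT ESCs the medians were -0.87 for the pathway and -0.52 for the target synthetases. The EB change of KO minus that of WT had a median of 1.33 in the pathway, where all 16 genes were above 0. In the target synthetases it was 0.25, and 5 of 7 were above 0. In the whole cytosolic class 8 of 14 were above 0, and of all genes 4417 of 9670. These comparisons share libraries and are set side by side only.

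The 5 synthetases whose promoter windows are printed above had a median log2 fold of -0.71 in KO ESCs over WT ESCs and -0.33 in KO EBs over WT EBs. All 5 were below 0 in ESCs, and in EBs only Yars was above. In the whole cytosolic class 13 of 14 genes were below 0 at each stage, and Yars was the only one above in EBs. Of all 9670 genes, 4868 were below 0 in ESCs and 5175 in EBs. The EB change of KO minus that of WT was above 0 in all 5, between 0.11 for Iars and 0.58 for Yars, with a median of 0.38. Of the 7 cytosolic enzymes outside the multisynthetase complex, 6 were above 0 as well, with a median of 0.29. These 7 include Aars, Gars, Tars and Yars, and also Farsa, whose promoter held no match, at 0.29. The pathway gene Asns, asparagine synthetase, had 6262 in KO EBs against 6868 in WT EBs and 7703 in KO ESCs against 13545 in WT ESCs.

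**Figure D4:**
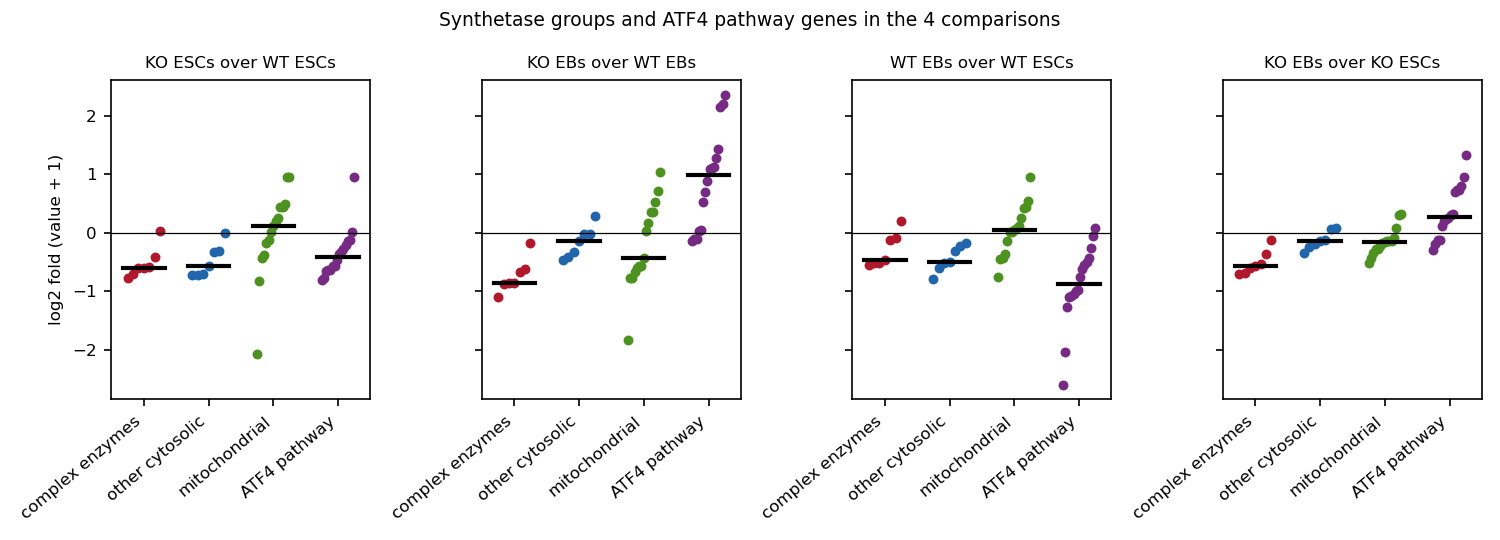
Log2 folds of the genes of 4 groups in the 4 comparisons, 1 point per gene and a line at the median. The ATF4 pathway lies above the synthetase groups in KO EBs over WT EBs, with a median of 0.99 against -0.85, -0.15 and -0.43, and below them in WT EBs over WT ESCs.

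Genes that act next to the synthetases varied in direction. Mtfmt, which formylates the methionyl-tRNA that Mars2 makes, had 466 in KO EBs against 220 in WT EBs and 369 in KO ESCs against 239 in WT ESCs, and so stood opposite to Mars2 at both stages. Of the amidotransferase subunits that act after Ears2, Qrsl1 had the lowest log2 fold in EBs at -0.78 and Gatc had 0.59. The medians of the 4 genes of mitochondrial aminoacyl-tRNA maturation were 0.15 in ESCs and 0.25 in EBs for KO over WT. The 72 mitochondrial ribosomal protein genes compared had medians of 0.00 in ESCs and 0.04 in EBs, and at 2-fold 1 was higher in ESCs, where 10.6% of all genes were. In EBs 3 were higher and 2 lower, where 15.2% of all genes were higher and 12.2% lower. Cytosolic elongation factors (5 genes) had medians of -0.52 in ESCs and 0.30 in EBs, with Eef1d the highest at both stages, at 1.82 in ESCs and 1.65 in EBs. Its value rests on counts below 50. The pair of mitochondrial elongation factors compared, Tsfm and Gfm1, had 0.33 and 0.15 in ESCs and 0.58 and -0.27 in EBs. Editing enzymes and relatives ranged in EBs between Dtd1, a deacylase of D-aminoacyl-tRNA, at -0.95 and Dtd2 at 0.28, and in ESCs between Aarsd1 at -0.08 and Tarsl2 at 0.76. The 4 genes of selenocysteine synthesis ranged in ESCs between Pstk at -0.55 and Sepsecs at 0.67, and in EBs between Pstk at -0.68 and Sephs2 at 0.42.

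A fit over all 9670 genes with stage and genotype as terms used the other stage as the replicate of a genotype and had 1 residual degree of freedom. By edgeR's quasi-likelihood test with Benjamini-Hochberg adjustment at 0.05, 0 of the 29 synthetases were called for either term. The shares of all genes called were 0.207% higher and 0.0517% lower for stage, and 0.0% in either direction for genotype. For genotype 6 synthetases had an unadjusted p under 0.05 (Dars, Ears2, Iars, Lars, Mars2 and Rars2), as had 1556 of all genes. Mars2 had the smallest adjusted p, 0.137, with a log2 fold of -1.95 and lower values in both KO libraries. DESeq2 on the same reads called Mars2 lower in KO (adjusted p = 0.0164) and no other synthetase, where it called 2.6% of all genes higher and 0.734% lower. For stage it called 2.83% of all genes higher and 1.04% lower and no synthetase. Over the alternatives of this fit the adjusted p of Mars2 ranged between 0.0164 and 0.137.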

How the data were processed

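Footprints were measured in 4 libraries, 1 per group, each matched to its column by the name in its title. The submitters' processing notes list HTSeq 0.6.0, TopHat2 2.0.10, CASAVA 1.8.2, DESeq and Bowtie, and the build mm10. Settings, annotation version and strand handling could not be taken from them. Each deposited value is a normalised signal for a RefSeq coding sequence, namely a read count that the authors divided by a factor common to its library. Every value (100%) was a whole multiple of its library's step within 0.01, so reads were recovered. Reads counted as ambiguous made up 8.62% to 10.5% of a library and reads without a unique place 48.4% to 55.7%; both stayed out of all sums.

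RefSeq annotation of GRCm38.p6 (the assembly of mm10) gave symbols to 27083 of 27442 entries, which were summed to 20716 genes. Coding bases of the 54 synthetase entries were compared with each other, and their 28-nt windows were searched in both strands of the genome. Folds used a pseudocount of 1 and the mean filter of 25. Read ratios have 95% conditional exact binomial (Clopper-Pearson) intervals. With 1 library a group no p-value was computed for 2 libraries. A count test on recovered reads was added (edgeR 4.0.16, TMM; DESeq2 1.42.0 as alternative; R 4.3.3), and other steps used Python 3.11.15 with scipy 1.17.1. Intervals and fits were tested on simulated data. Promoters were matched by symbol for 27 of the 37 members.

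The members, lists and tests were chosen with earlier results of these data known. Named were, per comparison, the 3 highest and 3 lowest members of each class and any at 2-fold. Pairs apart by 1 or more, Mettl3, Atf4 and the ends of each partner list were named too. Of the levels per kilobase, the 5 highest and 5 lowest of each class are given for WT ESCs, and fewer for the other libraries. Others are named where a sentence counts or groups them. A few values and a sequence are left out of the text, although class counts and medians include them.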

Additional observations from a re-analysis of the deposited data

Results flagged for a closer look

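Wars2, the mitochondrial tryptophanyl-tRNA synthetase, differed between genotypes in its change on EB formation by -1.38 on the log2 scale (interval -2.00 to -0.76, counting error only). It was lower in KO EBs than in KO ESCs (86.6 against 117 normalised counts) and higher in WT EBs than in WT ESCs (117 against 59.9), so the genotypes moved in opposite directions. With 1 library per group the difference was not tested.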

How the results depend on the processing

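Class medians kept their sign under the alternatives run, with the exception of the mitochondrial median in WT EBs over WT ESCs, which was 0.04 and became -0.01 under TMM scaling. No paired analysis was possible because each group holds 1 library and the labels carry no replicate numbers, and no replicate was left out.

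Scaled to the same total, the cytosolic median was -0.46 in KO ESCs over WT ESCs and -0.32 in KO EBs over WT EBs, 0 cytosolic genes were lower in the EB comparison, and 2 mitochondrial genes were higher in the ESC comparison. With no filter Wars added 1 cytosolic gene lower in KO ESCs over WT ESCs, 1 lower in WT EBs over WT ESCs and 1 higher in the difference of EB changes. With a mean of at least 100 the mitochondrial difference counted 0 lower, since Wars2 was no longer included. At 1.5-fold the genes counted were, for KO ESCs over WT ESCs, 8 cytosolic lower, 2 mitochondrial higher and 2 lower. For KO EBs over WT EBs they were 6 cytosolic lower, 2 mitochondrial higher and 5 lower. For WT EBs over WT ESCs they were 2 cytosolic lower, 1 mitochondrial higher and 1 lower, and for KO EBs over KO ESCs 3 cytosolic lower. For the difference they were 1 cytosolic lower, 1 mitochondrial higher and 3 lower. The summed mitochondrial reads gave -0.11 in KO EBs over WT EBs, where the median was -0.43. Without Gars and Kars, mitochondrial reads per 100 cytosolic were 24.1 in KO EBs, 19.7 in WT EBs, 20.1 in KO ESCs and 13.4 in WT ESCs.

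In the fit, median-of-ratios factors gave 36 genes higher for stage. With no filter edgeR called 243 higher and 95 lower for stage and 204 higher and 73 lower for genotype, with 1 synthetase lower (Mars2, adjusted p = 0.0327). DESeq2 called 274 higher and 101 lower for stage and 251 higher and 71 lower for genotype, again with 1 synthetase lower. The causes of these shifts in the fit were not tested. Pseudocounts of 0.1 and 10, TMM scaling apart from that median, the highest entry per symbol, and leaving out members with many copied windows kept each class value within its limits, as did leaving out Kars, an alternative chosen after seeing the data. Depth limits Kars, Wars, Wars2 and Mars2 most.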
